A study of Mus musculus with 6 samples.

Results

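The mitochondrial respiratory chain beyond complex I was followed through the 63 probe rows, for 46 gene symbols, that name a nuclear-encoded subunit of complexes II to V, out of 30146 probe rows for 21400 symbols in the deposited table. Rows were chosen by symbol: Sdha to Sdhd for complex II, Cyc1 and the Uqcr genes for complex III, Cox4 to Cox8 genes for complex IV and Atp5 genes for complex V, with pseudogenes left out. The rule itself uses symbols and no measured value, though it was set with earlier results of these data known. Islets, the endocrine clusters of the pancreas, came from 3 male wild-type C57Bl/6 mice, and every mouse gave islets to both arms. One arm received 10 uM cisplatin, a platinum drug that crosslinks DNA, and the other its vehicle, 0.9% saline, in complete RPMI medium for 48 h. Each of the 6 libraries was made with TempO-Seq, in which pairs of detector oligonucleotides that meet on an RNA are ligated and counted, so 1 row reports 1 probed stretch of a transcript. No age is stated for the mice, and the 3 mice are the only replicates.

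Complex II (succinate dehydrogenase) and complex III (cytochrome bc1) pass electrons from succinate and ubiquinol towards cytochrome c, complex IV (cytochrome c oxidase) hands them to oxygen, and complex V (ATP synthase) uses the resulting proton gradient to make ATP. In beta cells, ATP from this chain closes ATP-sensitive potassium channels, which leads to calcium entry and insulin release. All subunits of complex II are nuclear genes, whereas complexes III, IV and V combine nuclear subunits with a few encoded by mitochondrial DNA, and several complex IV subunits have separate isoforms for muscle, lung or testis.

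Libraries held 1116916 to 1366829 counts with cisplatin and 1470227 to 2272276 with vehicle, so the vehicle arm was the deeper one. Mitochondrially encoded rows took 2.83%, 3.11% and 28.6% of the counts in cisplatin libraries 1 to 3 and 0.188% to 1.74% in vehicle libraries, and cisplatin library 3 stood apart by this measure. Levels are given as CPM, counts relative to library size, scaled with TMM, a factor that balances the bulk of the rows between libraries. Genes of the marker lists and the other lists below stand by their most abundant row, while shares of all tested rows count every row. Beta cell markers were present in every library, at a summed 59673 to 140070 CPM with cisplatin and 91952 to 161950 with vehicle, and 0 of the 10 listed markers were at 0 in either group. Of the 9 tested beta cell markers 4 were called lower, and of all tested rows 11.1% were called higher and 13.9% lower. The 7 alpha cell markers summed to 8286 to 11220 CPM with cisplatin and 18981 to 52155 with vehicle, with 3 of 6 tested called lower and Irx1 at 0 in all cisplatin libraries. Of 6 tested immune markers 5 were called lower, and their list summed to 11.0 to 56.8 CPM with cisplatin and 132 to 211 with vehicle. Of 3 tested endothelial markers 1 was called higher and 2 lower, and of 4 tested stromal and pericyte markers 1 was lower. In these bulk samples fewer cells of a type and less RNA per cell cannot be told apart, and the part of these markers in the results below was not tested.

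The few respiratory subunit rows called with cisplatin were all higher, at a share near that of all tested rows. Of the 42 member rows with enough counts to be tested, which stand for 33 genes, 5 were called higher and 0 lower with cisplatin, and 37 were not called. Across all 9381 tested rows 25.0% were called, 11.1% higher and 13.9% lower. The 11.9% of member rows called higher thus lay near the background share, and 0 were called lower against 13.9%. In the bin of shortest genes described below, which held 28 of 38 member rows with a span, 2.55% of all rows were called lower. The median log2 fold change of the 42 rows was 0.39, against -0.07 for all tested rows, and single rows ran from -0.58 to 1.87. In 11 member rows (26.2%) every cisplatin library lay above every vehicle library, against 19.1% of all rows, and in 0 rows did every cisplatin library lie below, against 24.3% (43.4% of all rows had groups apart in either direction). A log2 fold change below 0 was seen in 14 of the 42 rows and in 52.5% of all rows. The 5 called rows belonged to Cox6a1, Uqcrfs1, Cox4i1, Sdha and Uqcrc1. The count of 5 was 1 without vehicle library 1, 3 without vehicle library 2, 1 without vehicle library 3, 1 when scaled by library totals alone and 8 with DESeq2. Over all rows the count called higher also moved, from 1040 to 504, 838 and 579 without vehicle libraries 1, 2 and 3. It was 459 with library totals alone and 1309 with DESeq2.

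**Figure D1:**
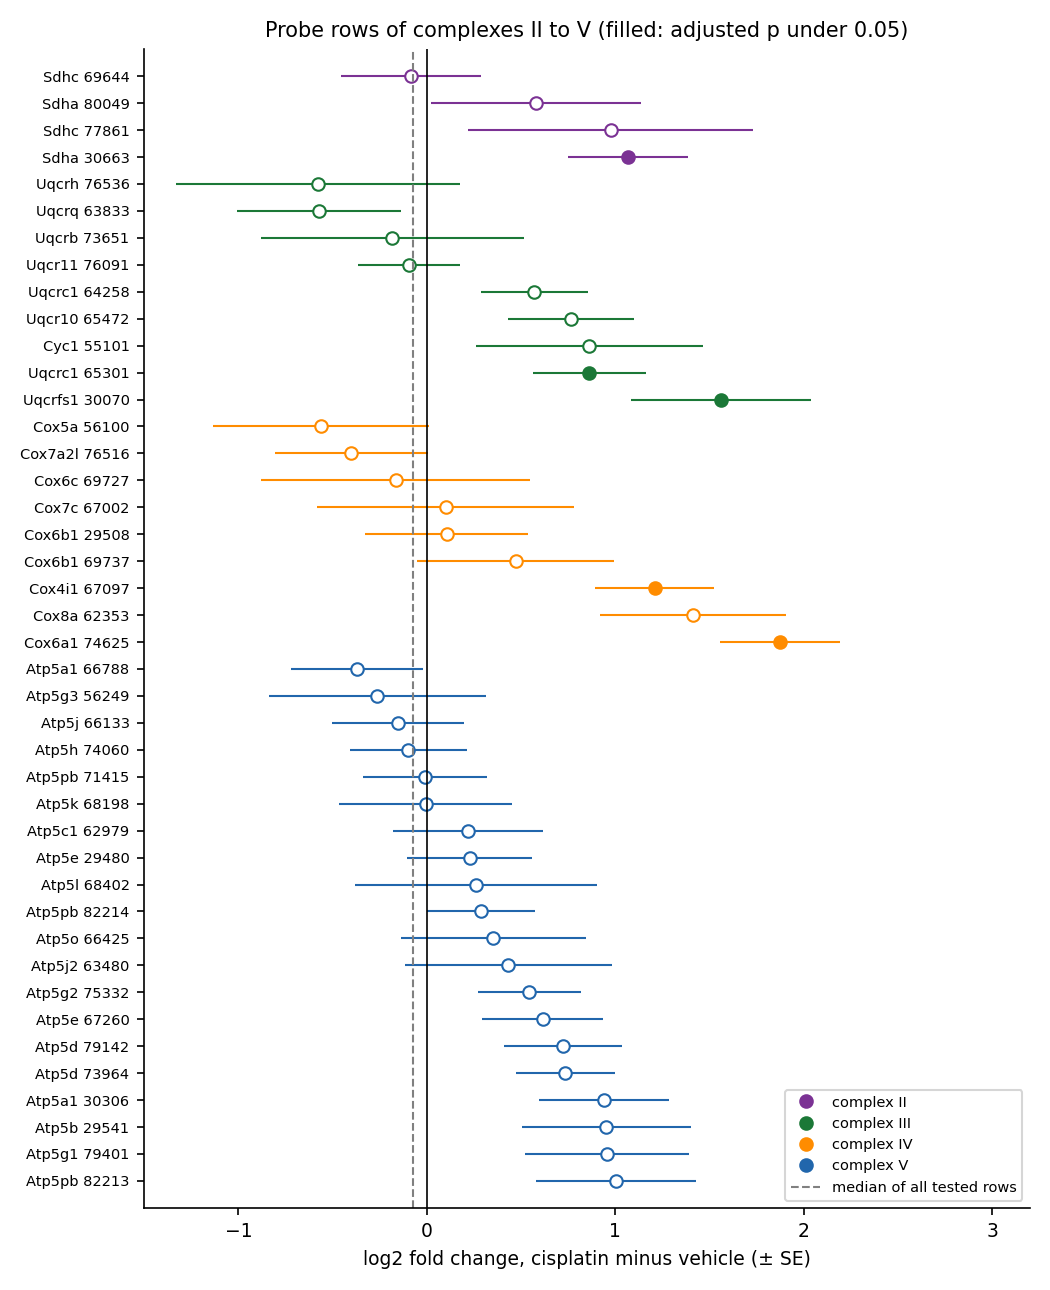
Log2 fold change (cisplatin minus vehicle, x axis) with its standard error for each of the 42 tested rows, named by gene and probe number and coloured by complex. Filled points are the 5 rows with an adjusted p under 0.05; the dashed line is the median of all tested rows at -0.07, and the rows reach from -0.58 to 1.87.

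For the 5 genes with a called row, the stretch around the annotated start is shown where the RefSeq table (build GRCm38.p6) holds it, 250 bases before to 50 after the start, 5′ to 3′ on the gene's strand. Capitals mark matches, on either strand, to the NRF1 letters (GCGCA, any base, GCGC) or the GABPA letters CCGGAAG, both factors known to drive respiratory chain genes. Cox4i1 is named only.
Cox6a1 (chr5:115348909-115349208, minus strand): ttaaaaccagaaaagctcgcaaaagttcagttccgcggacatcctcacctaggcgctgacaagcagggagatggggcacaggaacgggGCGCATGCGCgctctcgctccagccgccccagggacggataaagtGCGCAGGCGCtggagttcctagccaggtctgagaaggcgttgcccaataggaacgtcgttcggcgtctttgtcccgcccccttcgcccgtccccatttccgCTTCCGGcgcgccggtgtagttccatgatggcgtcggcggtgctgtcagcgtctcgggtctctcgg
Sdha (chr13:74350191-74350490, minus strand): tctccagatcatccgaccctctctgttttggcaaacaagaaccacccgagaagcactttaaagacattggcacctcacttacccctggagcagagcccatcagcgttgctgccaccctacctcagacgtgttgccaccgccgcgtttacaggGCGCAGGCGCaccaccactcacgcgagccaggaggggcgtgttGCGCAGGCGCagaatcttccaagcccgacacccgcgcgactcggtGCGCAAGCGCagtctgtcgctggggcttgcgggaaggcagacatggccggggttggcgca
Uqcrc1 (chr9:108936398-108936697, plus strand): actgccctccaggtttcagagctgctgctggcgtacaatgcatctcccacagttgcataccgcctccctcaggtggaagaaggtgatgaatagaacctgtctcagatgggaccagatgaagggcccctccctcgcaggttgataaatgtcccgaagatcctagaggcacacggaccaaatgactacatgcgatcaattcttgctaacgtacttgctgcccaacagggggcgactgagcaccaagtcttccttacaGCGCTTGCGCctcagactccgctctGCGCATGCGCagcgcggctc
Uqcrfs1 (chr13:30545267-30545566, minus strand): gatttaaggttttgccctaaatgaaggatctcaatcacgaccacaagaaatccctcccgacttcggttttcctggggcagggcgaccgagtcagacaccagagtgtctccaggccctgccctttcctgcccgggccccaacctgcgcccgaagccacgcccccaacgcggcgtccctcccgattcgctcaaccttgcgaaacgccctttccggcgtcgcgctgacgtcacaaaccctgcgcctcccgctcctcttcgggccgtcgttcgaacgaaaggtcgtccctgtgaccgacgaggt
The Cox6a1 window held NRF1 matches that begin 162 and 117 bases upstream of the start and a GABPA match 16 bases upstream. Sdha held 3 NRF1 matches, beginning 98, 55 and 10 bases upstream, and Uqcrc1 held 2, which begin 5 and 30 bases downstream. Uqcrfs1 held none of these letters in its window, and no matches overlapped in these 4 windows. Windows were found for 35 of the 46 member genes (38 windows). NRF1 letters were in 26.3% of the member windows and in 4.60% of all 32851 windows of the same length. GABPA letters were in 34.2% and 8.86%, and the YY1 letters AANATGGCG, searched the same way, in 7.89% and 2.38%. These matches describe the sequence only.

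Complex II was measured mainly through Sdha, the flavoprotein that oxidises succinate. Its most abundant row, Sdha_30663, had 2102, 1672 and 3343 CPM with cisplatin and 999, 1069 and 1328 with vehicle. All 3 cisplatin libraries lay above the vehicle libraries, with library 3 the highest. The row rose 2.10-fold (log2 fold change 1.07 ± 0.32 SE, edgeR quasi-likelihood test, adjusted p = 0.0256), and it held 30.2% of all 49525 counts of the member rows. Without cisplatin library 3 the change was 0.75 (adjusted p = 0.0756), and dropping vehicle library 1, 2 or 3 also ended the call (adjusted p = 0.134, 0.0776 and 0.0621). A second tested Sdha row, Sdha_80049, had 37.2, 9.51 and 24.7 CPM with cisplatin and 12.3, 15.2 and 20.5 with vehicle, groups that overlapped (0.58 ± 0.56, adjusted p = 0.492). The 2 remaining Sdha rows were too low to test, with 4 and 6 counts in all cisplatin libraries against 21 and 25 in all vehicle libraries. Their mean CPM was 1.31 and 1.87 with cisplatin and 3.24 and 3.92 with vehicle.

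The membrane anchor gene Sdhc gave values without a shared direction. Its main row, Sdhc_69644, had 204, 160 and 147 CPM with cisplatin and 112, 307 and 124 with vehicle, and vehicle library 2 was the highest of all 6 (-0.08 ± 0.37, adjusted p = 0.898). The lower row, Sdhc_77861, had a log2 fold change of 0.98 ± 0.76 and was not called. Sdhb, the iron-sulfur subunit that hands electrons on to the membrane anchors, had 11 counts with cisplatin, all in library 3, and 1 with vehicle. Sdhd, the other anchor, had 22 and 29 counts, at 6.52 ± 5.38 and 4.28 ± 4.55 CPM (SD, n = 3) once scaled for the deeper vehicle arm. Neither gene was tested.

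In complex III the 2 called rows were 1 row of a catalytic subunit and 1 row of a core subunit, and no test compared these roles. Uqcrfs1, the Rieske iron-sulfur protein, had 214, 157 and 84.7 CPM with cisplatin and 24.5, 95.3 and 36.6 with vehicle. Cisplatin library 3 lay below vehicle library 2, so the groups overlapped, and mouse 1 held the widest gap. Uqcrfs1 rose 2.95-fold (1.56 ± 0.48, adjusted p = 0.0282), and at 2.30 without vehicle library 2 the change was larger. Dropping cisplatin library 1 or 2, or vehicle library 1 or 3, ended the call (adjusted p = 0.0521, 0.0708, 0.126 and 0.114). Uqcrc1, a core protein of the matrix side, had 232, 154 and 273 CPM with cisplatin in its row Uqcrc1_65301 and 93.3, 134 and 135 with vehicle. The groups did not overlap, but cisplatin library 2 was close to vehicle libraries 2 and 3, and the call (0.86 ± 0.30) sat at the threshold with an adjusted p of 0.049998. With the mouse as a block the adjusted p was 0.0560, and complex III then had 1 called row in place of 2. Dropping any 1 of the other 5 libraries than cisplatin library 2 also ended the Uqcrc1 call (adjusted p = 0.0628 to 0.220). The other tested Uqcrc1 row, at 165, 130 and 212 CPM against 107, 114 and 121, was likewise higher in every cisplatin library but not called (0.57 ± 0.29, adjusted p = 0.162).

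Cyc1, the cytochrome c1 heme protein, was not called (0.86 ± 0.60, adjusted p = 0.327). The 5 small subunits had a median log2 fold change of -0.18 with 0 called. Uqcr10 was at 0.76 ± 0.34 (adjusted p = 0.113), with 133, 291 and 177 CPM against 96.1, 155 and 103, and was called without cisplatin library 1 (1.08, adjusted p = 0.0312). Uqcr11 was at -0.09 ± 0.27, with 156, 132 and 162 CPM against 135, 178 and 168, groups that overlapped. Uqcrb, Uqcrh (the hinge protein) and Uqcrq were at -0.18, -0.58 and -0.57 and none was called. Uqcrc2, the partner core protein, had 5 counts with cisplatin and 16 with vehicle in 1 row and 0 in its other row, and the third Uqcrc1 row had 9 and 18.

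The largest fold change among the 42 rows was in complex IV. Cox6a1, the form of subunit VIa used outside muscle, had 164, 112 and 167 CPM with cisplatin and 34.0, 41.7 and 45.3 with vehicle. The groups lay well apart, with cisplatin library 2 the nearest to the vehicle range. Cox6a1 rose 3.66-fold (1.87 ± 0.32, adjusted p = 9.4e-04), with log2 ratios of 2.23, 1.40 and 1.86 in the 3 mice. It was called in all 17 alternatives in which the row was fitted, at 1.43 to 2.03, with adjusted p of 4.4e-07 to 0.0120. Cox4i1, the nuclear subunit through which ATP regulates the enzyme, had 242, 215 and 201 CPM with cisplatin and 70.4, 140 and 75.6 with vehicle. No cisplatin library fell within the vehicle range, and vehicle library 2 was nearest. Cox4i1 rose 2.31-fold (1.21 ± 0.32, adjusted p = 0.0131), a call that ended on dropping vehicle library 1 or 3 (adjusted p = 0.0885 and 0.0864) or with library totals alone (0.79, adjusted p = 0.118).

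Cox8a, a small membrane subunit, lay just outside the threshold (1.41 ± 0.49, adjusted p = 0.0504). Its libraries had 33.8, 41.8 and 23.6 CPM with cisplatin and 7.91, 13.3 and 16.1 with vehicle, with no overlap. It was called under 9 of 17 alternatives, among them RLE factors (adjusted p = 0.0441), DESeq2 (0.0256) and leaving out cisplatin library 1 (0.0411) or 3 (0.0413). Cox7a2l, which helps to join complexes III and IV into supercomplexes, was on the other side of 0, with 89.6, 143 and 40.8 CPM against 111, 161 and 89.7 (-0.40 ± 0.40, adjusted p = 0.515). Its cisplatin libraries spread over a range wider than that of the vehicle libraries. Cox5a was at -0.56, Cox6c at -0.17 and Cox7c at 0.10, and none was called. The rows of Cox6b1, a subunit on the intermembrane face, were at 0.47 and 0.11.

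**Figure D2:**
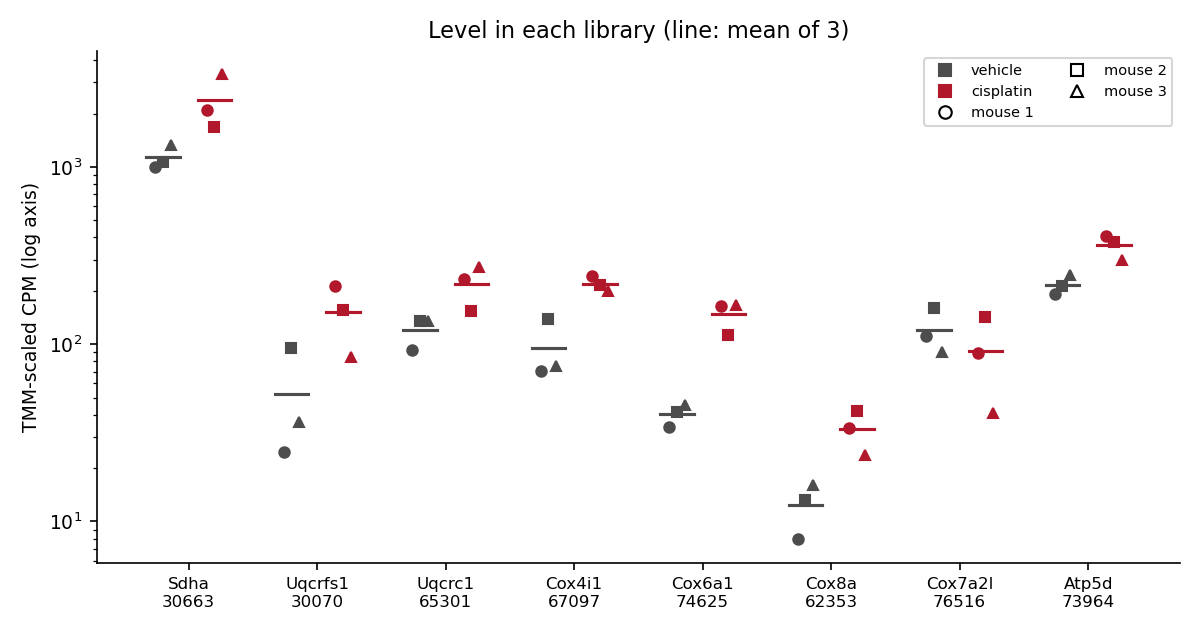
TMM-scaled CPM (log axis) of 8 rows in each library, with vehicle in grey, cisplatin in red, 1 symbol per mouse and a line at the mean of 3. Cox6a1 runs from 34.0 to 45.3 CPM with vehicle and from 112 to 167 with cisplatin, while the 2 groups of Cox7a2l overlap.

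Isoforms of other tissues were at or near 0. The lung and pericyte form Cox4i2 had 2 counts with cisplatin and 1 with vehicle. The testis forms Cox8c and Cox7b2 had 0 and 1 counts over all 6 libraries, and the Cox6b2 rows had 4, 0 and 0. The muscle form Cox7a1 had 0 counts, while its ubiquitous partner Cox7a2 had only 1. Cox6a2, the muscle form of subunit VIa, gave opposite values in its 2 rows. One had 0 counts with cisplatin and 8, 2 and 15 with vehicle, at least 3.97-fold lower when the cisplatin group is set to a floor of 3 counts. The other had 8 counts in cisplatin library 1 and 0 in every other library of either arm, so no fold change is given for the group. Of the 10 listed muscle genes, 4 heavy chain genes (Myh2, Myh4, Myh6 and Myh7) were at 0 in every library. Tnnc2, a troponin of fast muscle, had 8, 17 and 6 counts with cisplatin and 0 with vehicle, and Mb (10 counts), Ckm (3 and 4) and Myh1 (3) also had counts with cisplatin only. Acta1, the only tested gene of the list, had 18.6, 24.7 and 29.0 CPM with cisplatin and 26.1, 23.4 and 27.9 with vehicle. Its groups overlapped and it was not called (-0.11 ± 0.43, adjusted p = 0.892). Tnni2 had 3 counts in cisplatin library 3 and 2 in vehicle library 3. In all, 4 of the 10 were at 0 throughout the cisplatin group and 8 throughout the vehicle group, and the list summed to 33.8 to 46.6 CPM with cisplatin and 23.4 to 28.7 with vehicle. Its part in these values was not tested. Among ubiquitous subunits, Cox7b (39 and 29 counts) and Cox5b (21 and 38) were too low to test, and in both 1 cisplatin library held most of the cisplatin counts. Mean CPM was 11.7 with cisplatin and 5.00 with vehicle for Cox7b, and 6.70 and 5.86 for Cox5b.

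Complex V was covered by 20 tested rows for 15 genes, and none was called in either direction, against 25.0% of all tested rows. Without adjustment 5 of these 20 rows had an edgeR p under 0.05. At least the 25.0% of all tested rows called after adjustment were under it too. DESeq2 called 2 of the 20, against 2717 of all 9381 rows. The median log2 fold change was 0.32, and in 5 rows (25% against 19.1% of all tested rows) all cisplatin libraries lay above all vehicle libraries. In the F1 part, which holds the catalytic sites and the central stalk, single rows ran from -0.37 to 0.95, and no test compared the parts of the enzyme. Atp5d, the delta subunit of the central stalk, had 408, 376 and 297 CPM with cisplatin and 193, 213 and 244 with vehicle in its main row. The groups did not overlap, and the row missed the threshold (0.74 ± 0.26, adjusted p = 0.0550), being called with DESeq2 (adjusted p = 0.0163) and with RLE factors (0.0485). Its second row gave 0.72 ± 0.31. Atp5e, the epsilon subunit and the most counted row of the complex, had 761, 453 and 708 CPM against 259, 535 and 460 (0.62 ± 0.32, adjusted p = 0.180), and vehicle library 2 lay above cisplatin library 2. Atp5b, the catalytic beta subunit, was at 0.95 ± 0.45 (adjusted p = 0.139), and Atp5c1, the rotating gamma subunit, at 0.22 ± 0.40.

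The peripheral stalk, which holds the F1 head still, had 3 of its 6 tested rows above 0 and 3 below, with a median of 0.14 and a range of -0.15 to 1.00. Its highest row, Atp5pb_82213, had 91.3, 61.8 and 32.2 CPM with cisplatin and 24.5, 40.4 and 28.3 with vehicle, groups that overlapped (1.00 ± 0.42, adjusted p = 0.099995). The other Atp5pb rows were at 0.29 and -0.01, with Atp5h at -0.10 ± 0.31, Atp5j at -0.15 ± 0.35 and Atp5o, the oligomycin sensitivity protein, at 0.35 ± 0.49. Of the membrane rows, the 3 genes for subunit c, whose ring turns with the proton flow, did not share a value. Atp5g1 had 39.7, 25.7 and 51.5 CPM against 17.0, 17.7 and 25.2, and Atp5g2 had 277, 273 and 381 against 185, 261 and 192. Both were above the vehicle range in each cisplatin library without being called (0.96 ± 0.44, adjusted p = 0.126, and 0.54 ± 0.28, adjusted p = 0.167). Atp5g3 had 16.1, 20.9 and 6.43 CPM against 19.0, 21.5 and 12.2 (-0.26 ± 0.58, adjusted p = 0.788), with overlap. Atp5j2, Atp5k and Atp5l, which help to shape ATP synthase dimers in the membrane, were at 0.43, -0.01 and 0.26, and Atp5md (8 and 22 counts) and the other Atp5o row (8 and 20) were too low to test.

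Probes of 1 gene did not always give like values, and their ratio within a library does not depend on the scaling. The 2 rows of Atp5a1, the alpha subunit of F1, had fold changes of opposite sign, 0.94 ± 0.35 (adjusted p = 0.0614) and -0.37 ± 0.35 (adjusted p = 0.485). Their count ratio was 1.91, 0.960 and 5.08 in the cisplatin libraries and 0.690, 0.790 and 1.03 in the vehicle libraries, so cisplatin library 3 stood out and cisplatin library 2 lay within the vehicle range. For the tested Sdha rows the ratio was 56.5, 176 and 136 with cisplatin and 81.6, 70.5 and 64.9 with vehicle. Over 9 such pairs in 8 genes the groups overlapped in all, and the smallest two-sided exact permutation p was 0.2 (adjusted over the 9 pairs, 0.540), where 3 against 3 libraries can reach 0.1. The rows of Atp5pb, a stalk subunit, were at 0.29, -0.01 and 1.00, and those of Atp5d differed by 0.03 in their mean log2 ratio between groups.

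Summed over its rows, each complex had a higher mean level with cisplatin on the TMM scale. Complex II went from 1348 ± 185 to 2594 ± 852 CPM (SD, n = 3), but without the row Sdha_30663 the sums were 216 ± 113 and 222 ± 46.9. Complex III went from 641 ± 127 to 958 ± 18.8 CPM, complex IV from 395 ± 131 to 636 ± 109 and complex V from 1933 ± 381 to 2609 ± 380. On this scale the groups did not overlap for complexes II and III. For complex IV cisplatin library 3 (518 CPM) lay below vehicle library 2 (545), and for complex V cisplatin library 2 (2309) lay below vehicle library 2 (2316). As shares of all counts the means were nearer, 0.213% against 0.154% for complex II, 0.0804% against 0.0732% for complex III, 0.0547% against 0.0450% for complex IV and 0.224% against 0.221% for complex V. By share the groups overlapped for every complex. Cisplatin library 2 lay below vehicle library 2 in complex II (0.146% and 0.152%) and in complex III (0.0732% and 0.0831%). Scaled by library totals alone, the median log2 fold change of the 42 rows was 0.03 against -0.54 for all rows, and it was -0.31 for complex IV and -0.03 for complex V, below 0. By rows on the TMM scale, the medians were 0.78 for complex II (4 rows), 0.57 for III (9), 0.11 for IV (9) and 0.32 for V (20), and differences between complexes were not tested.

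**Figure D3:**
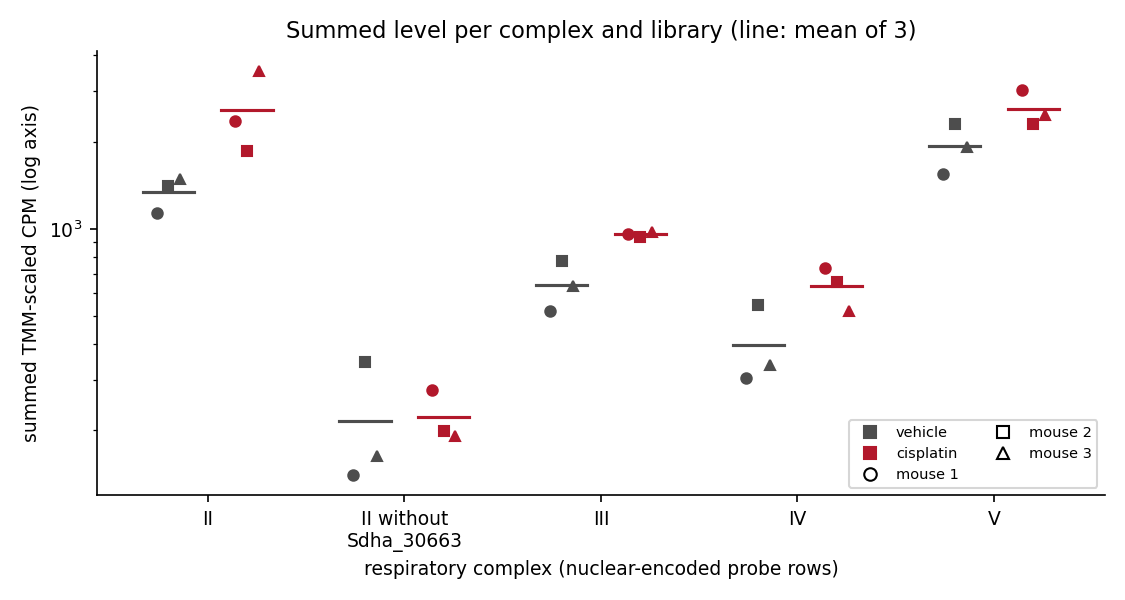
Summed TMM-scaled CPM (log axis) of the member rows of each complex in each library, with vehicle in grey, cisplatin in red, 1 symbol per mouse and a line at the mean of 3. Complex II is also shown without the row Sdha_30663, where the means are 216 and 222 CPM.

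The shift differed between the 3 pairs of libraries, and with 1 library per arm from each mouse, mouse and library cannot be told apart. In mouse 1, 36 of 42 rows were higher with cisplatin and the median log2 ratio was 1.00, while in mouse 3 27 rows were higher and the median was 0.27. In mouse 2, 18 of the 42 rows were higher and the median was -0.23. The median of all tested rows was -0.11, -0.05 and -0.18 in mice 1 to 3, and 46.8%, 48.5% and 44.3% of them were higher with cisplatin. Vehicle library 2 was the highest vehicle library in 30 of the 42 rows, and vehicle library 1 the lowest in 28, against 40.0% and 30.1% of all tested rows. The same vehicle library 2 had the highest summed alpha cell and beta cell markers of the vehicle arm (52155 and 161950 CPM), and their part in the difference between pairs was not tested. Without vehicle library 2 the median of the member rows was 0.70, and without vehicle library 1 it was 0.14. A total of 16 rows (38.1%) were higher with cisplatin in all 3 mice and 5 (11.9%) were lower, against 25.0% and 31.6% of all tested rows.

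**Figure D4:**
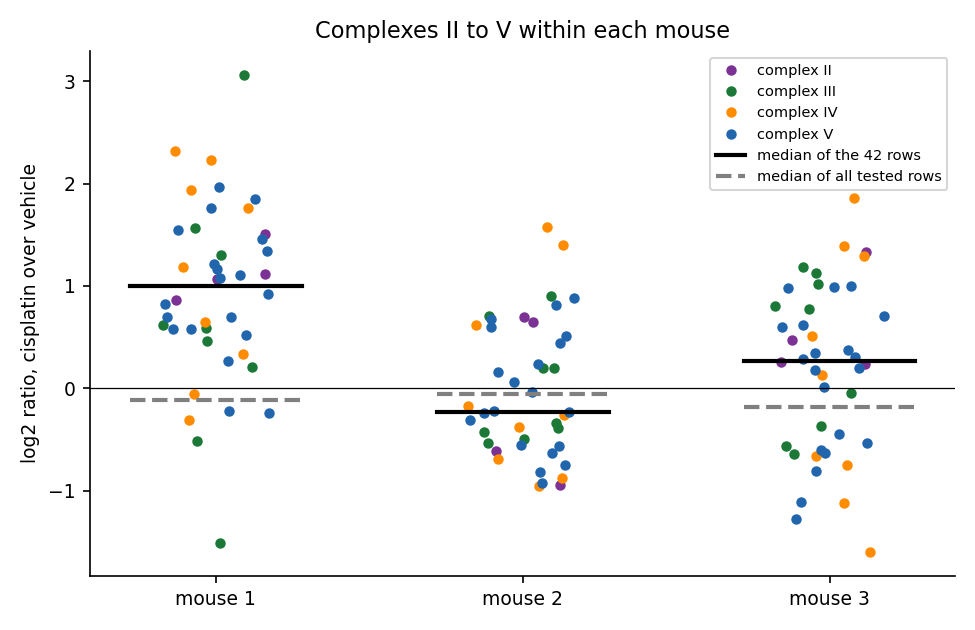
Log2 ratio of cisplatin over vehicle for the 42 tested rows within each mouse, coloured by complex, with horizontal scatter for legibility. The solid lines are the medians of these rows (1.00, -0.23 and 0.27) and the dashed lines those of all tested rows.

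Respiratory subunit genes are compact, and short genes had a different background in these libraries. By GENCODE M21 the 38 tested member rows with a unique gene entry had a median genomic span of 7.47 kb, against 25.2 kb for all tested rows, and 28 of the 38 were in the shortest of 4 equal-sized bins (up to 10.6 kb). Across all tested rows in that bin the median log2 fold change was 0.58, with 23.7% called higher and 2.55% lower, and the 28 member rows had a median of 0.45. In the longest bin (58.4 kb and above), which held 0 member rows, the median was -1.29 and 40.4% were called lower. The members were also abundant, with 20 of the 38 rows in the top of 4 such bins of mean CPM, where the median of all rows was 0.23. The part of span and abundance in the members' values was not tested.

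**Figure D5:**
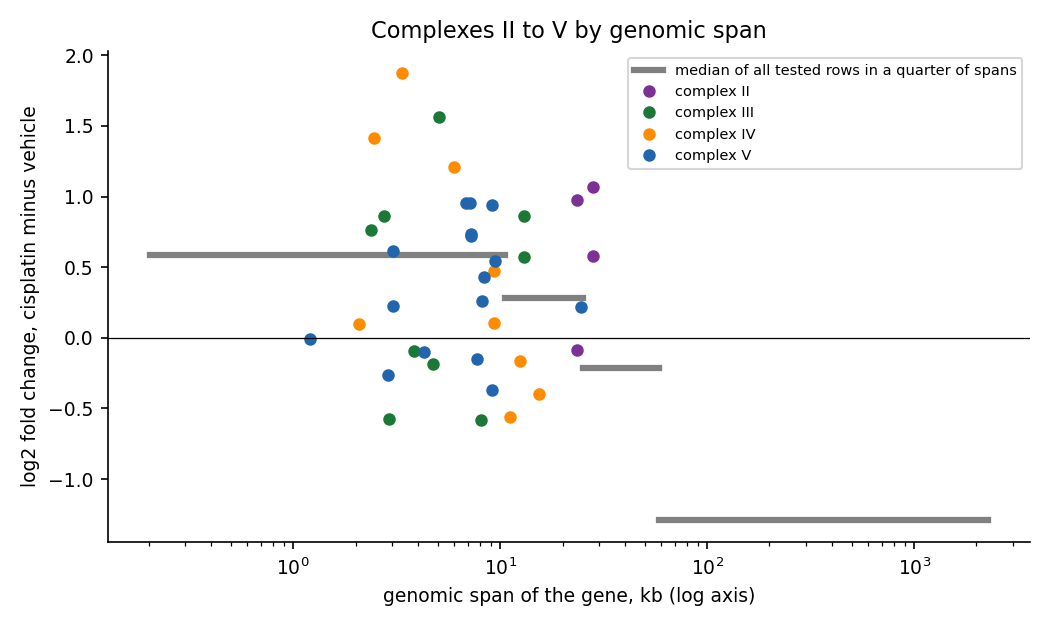
Log2 fold change of 38 member rows (points, by complex) against the genomic span of the gene in kb (log axis). Grey bars are the medians of all tested rows in each of 4 bins of span, 0.58, 0.28, -0.21 and -1.29 from the shortest to the longest.

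Counts for other large mitochondrial and ribosomal sets are read against the 11.1% higher and 13.9% lower of all tested rows. Of 36 tested rows of nuclear complex I genes (Nduf) 4 were called higher and 0 lower with a median of 0.09, and of 56 mitochondrial ribosomal protein rows 6 were called higher and 0 lower with a median of 0.44. Of 83 cytosolic ribosomal protein rows 18 were higher and 0 lower with a median of 0.56. Every cisplatin library lay below every vehicle library in 5 Nduf rows, 3 mitochondrial ribosomal rows and 0 cytosolic ribosomal rows. These were 13.9%, 5.36% and 0% of the sets, against 24.3% of all tested rows. Every cisplatin library lay above in 6, 14 and 31 rows (16.7%, 25% and 37.3%, against 19.1%). No difference between these sets and complexes II to V was tested.

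The mitochondrially encoded partners were measured by 2 of the 6 listed genes. mt-Cytb, the cytochrome b of complex III, had 8.46, 141 and 377 CPM with cisplatin and 28.1, 9.47 and 18.1 with vehicle, so the groups overlapped and cisplatin library 1 lay below all vehicle libraries. It was called higher (3.21 ± 0.83, adjusted p = 0.0128) but not with the mouse as a block (2.62, adjusted p = 0.182) or on dropping cisplatin library 3 (2.01, adjusted p = 0.105). Dropping cisplatin library 2 (adjusted p = 0.117) or any 1 vehicle library (0.0730 to 0.323) ended the call too. mt-Atp8, a membrane subunit of complex V, had 32.1, 21.9 and 45.0 CPM against 9.49, 11.4 and 7.87, all cisplatin libraries above all vehicle libraries. It rose by 1.78 ± 0.51 (adjusted p = 0.0194) and lost its call on dropping cisplatin library 3 (1.51, adjusted p = 0.0683) or vehicle library 1 or 3 (0.0865 and 0.109).

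Assembly factors, which build the complexes without staying in them, held calls in both directions. Of 22 tested factors of complexes II to V 5 were called higher and 1 lower, against 11.1% higher and 13.9% lower of all tested rows. Sdhaf1, which protects the iron-sulfur centres of complex II, had 33.0, 38.0 and 13.9 CPM with cisplatin and 1.98, 7.58 and 2.36 with vehicle (2.89 ± 0.69, adjusted p = 0.0084). Uqcc3, a complex III factor, had 318, 225 and 418 CPM against 70.0, 98.5 and 112 (1.78 ± 0.31, adjusted p = 0.00125) and was called in all 17 alternatives. For complex IV, Coa4 (1.84 ± 0.51) and Coa6, a copper delivery factor (1.38 ± 0.39), rose and Cmc1 fell, from 12.9 ± 2.26 to 1.555 ± 0.431 CPM (SD, n = 3). Cmc1 had only 2, 2 and 1 counts in the cisplatin libraries. It was not called with the mouse as a block (adjusted p = 0.0610) or without any single vehicle library. Atpaf2, which loads the alpha subunit into F1, rose by 1.37 ± 0.45 (adjusted p = 0.0373), and it was not called without cisplatin library 1 or 2 or any single vehicle library. Sdhaf1 and Coa4 were not called without vehicle library 1 or 3, Coa4 also not without cisplatin library 2 or vehicle library 2, and Coa6 not without cisplatin library 3 or vehicle library 1 or 3.

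Of 8 tested genes for cytochrome c and coenzyme Q synthesis 0 were called higher and 1 lower, against 11.1% and 13.9% of all tested rows. Cycs, the mobile cytochrome c, had 140, 125 and 46.1 CPM with cisplatin and 32.8, 72.6 and 40.9 with vehicle (1.10 ± 0.44, adjusted p = 0.0791), and dropping cisplatin library 3 or vehicle library 2 brought it under the threshold (1.47 and 1.48, adjusted p = 0.0207 and 0.0499). Coq4 had only 1, 1 and 6 counts with cisplatin (0.85, 0.95 and 6.43 CPM), against 16.6, 13.3 and 15.0 CPM with vehicle. It fell by 2.48 on the log2 scale (adjusted p = 0.0473) and was not called with the mouse as a block (adjusted p = 0.0655), nor on dropping any library but cisplatin library 3 (0.0822 to 0.243). Of 8 tested porins, carriers and regulators of nucleotide exchange 0 were called in the edgeR test, against 25.0% of all tested rows. Among them were Vdac1, at 0.01 ± 0.30, and Slc25a4, the adenine nucleotide carrier, at -0.79 ± 0.38. The lowest unadjusted p among these 8 was 0.0278 (Vdac2), and 1 of the 8 was under 0.05. Of 15 protein import genes 3 were called higher and 0 lower, against 11.1% and 13.9% of all tested rows. The 3 were Timm8b (1.35 ± 0.28), Tomm6 (0.94 ± 0.28) and Tomm22 (0.82 ± 0.27). Timm8b was called in all 17 alternatives, Tomm6 was not called without cisplatin library 3 or any single vehicle library, and Tomm22 not without cisplatin library 1 or 3 or any single vehicle library.

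Among 6 tested regulators of respiratory genes 2 were called higher and 1 lower, against 11.1% and 13.9% of all tested rows. Yy1, a transcription factor that binds many respiratory gene promoters, had 711, 790 and 950 CPM with cisplatin and 334, 451 and 409 with vehicle (1.04 ± 0.27, adjusted p = 0.0117), a call that ended on dropping vehicle library 1 or 3 (adjusted p = 0.0951 and 0.0612). Twnk, the mitochondrial DNA helicase, rose by 1.97 ± 0.43 (adjusted p = 0.0045). Gabpa, the DNA-binding part of the factor whose letters were searched above, had 0.85, 0 and 3.22 CPM with cisplatin and 14.6, 17.0 and 7.87 with vehicle. It fell by 3.27 on the log2 scale (adjusted p = 0.0300) and lost its call with the mouse as a block (adjusted p = 0.0687) and on dropping cisplatin library 2 (0.0674) or any 1 vehicle library (0.0818 to 0.184).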

How the data were processed

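Counts per probe row were deposited by the authors as whole numbers, and each row carries a symbol. Tools listed in the submitters' processing notes are STAR 2.7.10b, fastp 0.23.2 and DESeq2 1.44.0, without role or settings, and the panel is the mouse whole transcriptome set, per the labels' protocols. No source used here gives the genome build or how reads were counted, and probes of near-identical genes may share reads. Rows were filtered with edgeR 4.0.16 (minimum count 10), which left 9381, scaled with TMM and tested with the quasi-likelihood F-test in R 4.3.3 with treatment as the only term. Benjamini-Hochberg adjustment covered all tested rows, and a row was called under 0.05, two-sided. Each SE is the fold change divided by the root of F. P-values measure the spread between 3 libraries per arm, and floors cover counting error only.

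The symbol rule for members uses no measured value, but it and the lists were chosen with earlier results of these data known. Named genes were the called rows, the 3 most abundant uncalled tested rows of each complex, genes whose rows differ in call, the isoform sets and subunit c genes, the mitochondrially encoded partners, Cycs and called members of the other lists. Others are named to account for every member. In the lists of markers, assembly factors, carriers, nucleotide exchange, import and regulators, each gene stands by its row with the highest mean CPM. Its other rows were not counted there. Calls varied with abundance, from 1.99% higher and 10.2% lower in the lowest of 4 bins of mean CPM to 23.6% and 16.5% in the top. Shares of all tested rows are thus not matched to the lists in abundance. The labels pair the arms by animal. Within the 3 pairs, library deviations from their group mean correlated at -0.116, 0.0336 and 0.219, and a fit blocked on mouse was an alternative, since no source states that the authors used one. Others were RLE factors, library totals alone, no filter, mean CPM of 10, DESeq2 1.42.0, limma-voom (limma 3.58.1), rows summed per gene, thinning, rows of mitochondrial genes left out and each library left out. Another pair, library sizes over all rows and the joint removal of mitochondrially encoded rows and cisplatin library 3, were chosen after seeing the data. The test was tried on simulated counts for cisplatin against vehicle, drawn for 9381 rows. Of 85 tested rows changed 2-fold 8 were called, of 89 changed 4-fold 54 were, and of 8403 unchanged rows 2 were. Changes near 2-fold were thus often not called in the simulation. Only a small part of the simulated rows was changed, whereas 25.0% of tested rows were called in the data. The adjustment was stricter there for that reason, so these shares do not give the power in the data.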

Additional observations from a re-analysis of the deposited data

How the results depend on the processing

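Under all 18 alternatives 0 member rows were called lower. The count called higher was 1 with library totals alone and 8 with DESeq2, and 1 to 6 with single libraries left out. With library totals alone 459 of all rows were higher and 2023 lower, and with DESeq2 1309 were higher and 1408 lower. With single libraries left out the count over all rows was 1085 to 2538, with 504 to 1244 higher and 581 to 1294 lower. Calls in complex II were 0 with library totals alone or without mitochondrially encoded rows and cisplatin library 3, and 0 to 1 with single libraries left out. In complex III they were 0 with library totals alone and 1 with no filter, with the replicate block, with rows summed per gene, with library sizes over all rows or without mitochondrially encoded rows and cisplatin library 3, and 0 to 1 with single libraries left out. In complex IV they were 1 with library totals alone and 1 to 3 with single libraries left out. In complex V they were 1 with RLE factors, limma-voom, thinning, rows summed per gene or without mitochondrially encoded rows, 2 with DESeq2 or without those rows and cisplatin library 3, and 0 to 2 with single libraries left out. The cause was not tested. The replicate block ended the calls of Uqcrc1, Cmc1, Coq4, Gabpa and mt-Cytb and changed no other call among the rows named here.

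Of the 42 rows 25 kept their sign in all alternatives that fitted them, and 17, none called, did not. Library totals alone gave Atp5c1 -0.13, Atp5e_29480 -0.17, Atp5l -0.054, Atp5o -0.0087, Atp5pb_82214 -0.13, Cox6b1_29508 -0.31 and Cox7c -0.39. Atp5k and Atp5pb_71415 were above 0 at 0.018 and 0.029 with DESeq2, 0.019 and 0.029 with RLE factors, 0.034 and 0.047 without mitochondrially encoded rows, 0.040 and 0.055 with limma-voom, and 0.26 and 0.066 after thinning. With limma-voom Sdhc_69644 was at 0.092 and Uqcrb at 0.050, with the replicate block Sdhc_69644 was at 0.058 and Atp5pb_71415 at 0.031, and after thinning Cox6c was at 0.12. Without mitochondrially encoded rows and cisplatin library 3 the values were Atp5g3 0.065, Atp5h 0.12, Atp5k 0.25, Cox6c 0.22, Cox7c -0.22 and Uqcrb 0.10. With single libraries left out the ranges were Atp5c1 -0.12 to 0.57, Atp5g3 -0.62 to 0.10, Atp5h -0.22 to 0.14, Atp5j -0.33 to 0.22, Atp5j2 -0.11 to 0.87, Atp5k -0.29 to 0.31, Atp5l -0.26 to 0.92, Atp5pb_71415 -0.19 to 0.20, Cox6b1_29508 -0.090 to 0.46, Cox6c -0.82 to 0.25, Cox7c -0.23 to 0.85, Sdhc_69644 -0.32 to 0.51, Uqcrb -0.58 to 0.40 and Uqcrh -1.78 to 0.11. Sdhb, Sdhd, Cox7b and Cox5b held too few counts to be tested, and depth, probe and expression cannot be told apart there.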
